A study of Oryza sativa Japonica Group with 4 samples.

Results

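Trehalose-6-phosphate synthases (TPS) and trehalose-6-phosphate phosphatases (TPP) are the enzymes that make and remove the sugar phosphate trehalose-6-phosphate. Every gene whose name in the deposited tables contains the word trehalose, in upper or lower case, was taken, which gave 17 of 35825 genes, 9 phosphatases and 8 synthases. Family members that the tables give by ID alone would be missed by this rule, so sums and ranks by class cover the named genes only. The family was picked because 1 of them, TREHALOSE-6-PHOSPHATE PHOSHPHATASE 7 (spelled as in the tables, TPP7 from here on), had been seen to be far higher in *sstl-s* than in *SSTL-F* at the earlier stage only. The gene was therefore chosen by its measured levels in these same libraries, and its pattern is given as a description. The other genes are shortened in the same way, to TPP1 to TPP9, TPS1 to TPS6 and TPS8. TPS6 has 2 entries that the tables number TPS6_1 and TPS6_2, and no synthase numbered 7 is among the rows.

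All plants were rice of the Japonica variety Tainung 67 (TNG67) and came from the progeny of a semi-sterile plant (*sstl*) found in a T-DNA insertion line, in which sterility did not segregate with the T-DNA. Anthers of plants with fertile panicles (*SSTL-F*, the control) and of plants with sterile panicles (*sstl-s*) were collected from a growth chamber at the young microspore (YM) and the late pollen mitosis (LpM) stages. RNA of each genotype and stage was sequenced once, so 4 libraries make 4 groups of 1, and no difference has a replicate check and no p-value is given. The causal gene of the sterility and the number of plants behind each RNA sample are not given in the sources used here.

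Below, fertile stands for *SSTL-F* and sterile for *sstl-s*. Read counts per gene summed to 10161675 in fertile YM, 11523243 in fertile LpM, 11559430 in sterile YM and 11076871 in sterile LpM. Levels of a gene across libraries are given as TMM-normalized CPM, the gene's share of the scaled library, on which 3 counts correspond to 0.246 to 0.309 CPM. Differences are log2 fold changes with a prior count of 1, positive where fertile is higher than sterile or LpM is higher than YM. The pair of values in brackets after each bounds a 95% interval of the log2 ratio without the prior count. It was converted from the exact Clopper-Pearson limits for the share of the gene's reads in either library. These reads carry no molecular identifiers, and the intervals and floors hold counting error alone. Levels of different genes are compared only within a library and per length, by the deposited RPKM values.

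TPS joins glucose from UDP-glucose to glucose-6-phosphate to give trehalose-6-phosphate, TPP takes the phosphate off to give trehalose, and trehalase splits trehalose into glucose. In plants trehalose-6-phosphate is best known as a signal that follows the sucrose level and that inhibits SnRK1, a protein kinase active when sugars are scarce. Plant synthases fall into class I, with shown enzyme activity (TPS1 in rice), and class II, for most of which no activity is known. A phosphatase of maize, RAMOSA3, shapes inflorescence branching, and in rice TPP7 is known from the germination of submerged seeds.

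The largest difference between fertile and sterile anthers in this family was in TPP7 at YM, and it was the measurement that led to the choice of the family. TPP7 had 15 counts in fertile YM, 109 in fertile LpM, 457 in sterile YM and 105 in sterile LpM. Normalized, these were 1.54, 9.66, 37.5 and 9.36 CPM. The sterile YM library stood apart at the top and the fertile YM library at the bottom, and both LpM libraries lay between them at nearly the same level. From the lowest to the highest library the span was 24.2-fold. The log2 fold change of fertile over sterile was -4.52 [-5.45, -3.86] at YM and 0.04 [-0.35, 0.45] at LpM, so the neighbours fertile LpM and sterile LpM did not differ beyond counting error. Of the 14796 genes that reached 100 counts in the higher of the YM libraries, 1 had a lower value than TPP7.

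The 2 genotypes moved in opposite directions between the stages for TPP7. In fertile anthers it was 5.96-fold higher at LpM than at YM, a log2 change of 2.58 [1.86, 3.53]. In sterile anthers it was 3.97-fold lower at LpM than at YM, a log2 change of -1.99 [-2.32, -1.69]. Each of these stage differences shares its YM library with the genotype difference at YM, so the 3 are not separate observations.

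In RNA of whole anthers, fewer cells of a type and less RNA per cell cannot be told apart. Markers of anther tissue were present in every library. Of 9 genes of the tapetum and of pollen wall synthesis, 8 were matched and none was at 0. Their summed level was 9084 CPM in fertile YM, 10130 in fertile LpM, 4460 in sterile YM and 8150 in sterile LpM. Both late pollen genes, Os09g0388400 and Os09g0381400, were detected in every library and together made 86.3, 196.2, 9.43 and 50.6 CPM. They had different profiles, Os09g0388400 with 77.5, 34.5, 4.92 and 2.94 CPM and Os09g0381400 with 8.86, 161.7, 4.51 and 47.7 CPM. The 8 genes of green tissue made 155.2, 398.9, 221.4 and 529.2 CPM. The 3 chlorophyll a/b binding genes among them were higher in sterile anthers at both stages, while 4 of 5 RuBisCO small subunit genes at YM and 5 of 5 at LpM had values above 0. The tapetum and late pollen sums were lowest in sterile YM, though not each of their genes (Os09g0388400, TDR and UDT1 were not), the library in which TPP7 and TPP1 were highest and TPS4 lowest, and the part of cell makeup in those values was not tested.

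**Figure D1:**
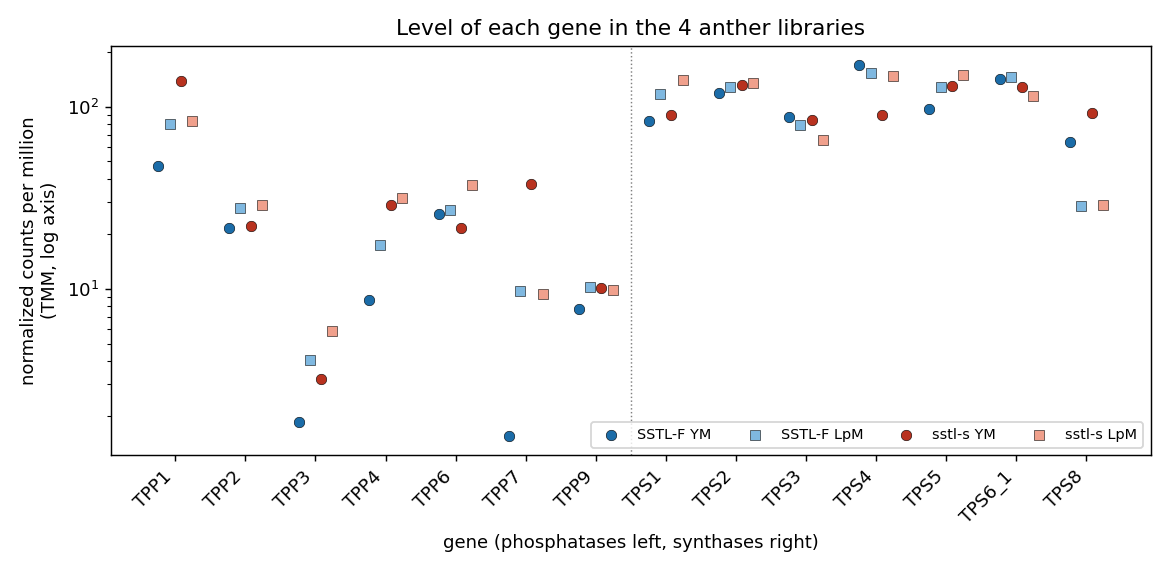
Level of the 14 genes that reached 10 counts, in TMM-normalized CPM on a log axis, with 1 point per library (circles YM, squares LpM, blue fertile anthers, red sterile anthers). TPP7 runs from 1.54 to 37.5 CPM, while TPS2 stays between 118 and 135 CPM.

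Of the 17 genes, 14 reached 10 counts in some library, a line that 24543 of all genes passed. The 3 that did not were TPP5 with 0, 1, 2 and 2 counts, TPP8 with 6, 1, 9 and 4, and TPS6_2 with 8, 4, 4 and 3, each in the order fertile YM, fertile LpM, sterile YM and sterile LpM. With at most 9 counts in a library, they are given no fold. The passing genes were 7 phosphatases and 7 synthases.

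At YM, 3 of these 14 genes were at least 2-fold lower in fertile anthers and 0 were at least 2-fold higher. All 3 were phosphatases (TPP1, TPP4 and TPP7), and for each the whole interval lay past 2-fold. Among all 24543 genes the shares were 8.21% lower and 4.24% higher. Since TPP7 chose the family in this comparison, the count without it is 2 of 13. The median log2 fold change was -0.26 over the 14 genes and 0.03 over all genes that passed the same line, with -0.76 for the phosphatases and -0.10 for the synthases. The medians of the 14 genes and of the phosphatases include TPP7 and were not computed without it. Nothing particular to the family is read from them.

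TPP1, whose product is a chilling-responsive phosphatase in rice, was the most abundant phosphatase per length in all 4 libraries. Its counts were 460 in fertile YM, 906 in fertile LpM, 1681 in sterile YM and 935 in sterile LpM, or 47.4, 80.3, 137.8 and 83.3 CPM. As for TPP7, sterile YM was on top, fertile YM at the bottom and the LpM libraries were close together. The log2 fold change of fertile over sterile was -1.54 [-1.69, -1.39] at YM, 2.90-fold lower, and -0.05 [-0.19, 0.08] at LpM. Between the stages it changed by 0.76 [0.60, 0.93] in fertile anthers and by -0.72 [-0.84, -0.61] in sterile anthers.

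TPP4 was lower in fertile anthers at both stages. It had 84 counts (8.65 CPM) in fertile YM, 196 (17.4 CPM) in fertile LpM, 350 (28.7 CPM) in sterile YM and 354 (31.5 CPM) in sterile LpM. Both sterile libraries lay above both fertile libraries. The log2 fold change was -1.72 [-2.09, -1.38] at YM and -0.86 [-1.12, -0.60] at LpM, the second of these 1.81-fold and short of the 2-fold line. In fertile anthers it was 1.997-fold higher at LpM than at YM, a log2 change of 0.998 just under the line, and in sterile anthers the change was 0.14 [-0.08, 0.35].

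At YM the other phosphatases differed less between the genotypes than TPP1, TPP4 and TPP7. TPP3, at 1.85, 4.08, 3.20 and 5.88 CPM in the same library order, differed by -0.76 [-1.68, 0.05] at YM and by -0.52 [-1.11, 0.04] at LpM, intervals that both include 0. TPP2, which has also been studied as an active phosphatase of rice, was at 21.5, 27.8, 22.2 and 28.8 CPM, with -0.04 [-0.31, 0.22] and -0.05 [-0.28, 0.18]. It was thus near the same level in both genotypes and somewhat higher at LpM in each. TPP9 was at 7.73, 10.2, 10.1 and 9.80 CPM, with -0.38 [-0.82, 0.04] at YM and 0.06 [-0.33, 0.45] at LpM. TPP6 was at 25.9, 27.1, 21.6 and 36.9 CPM, with 0.26 [0.002, 0.51] at YM and -0.44 [-0.66, -0.23] at LpM.

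**Figure D2:**
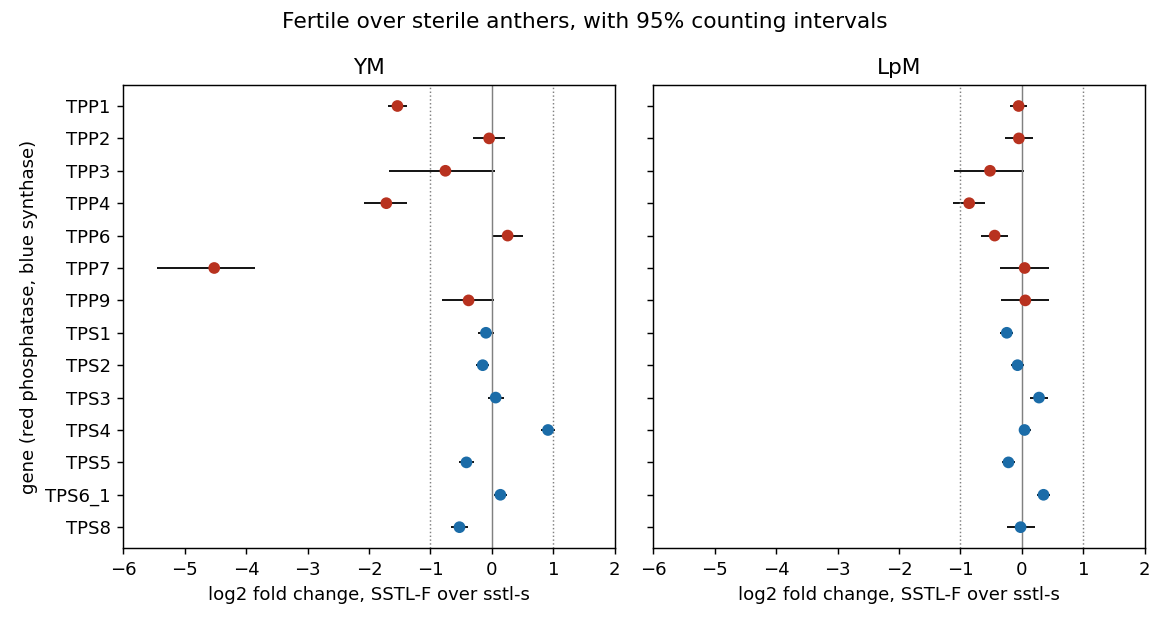
Log2 fold change of fertile over sterile for the 14 genes at YM (left) and LpM (right), with 95% counting intervals as horizontal lines, phosphatases in red, synthases in blue and dotted lines at 2-fold. At YM, TPP7, TPP1 and TPP4 lie left of the line at -1, and at LpM all 14 lie within the lines.

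At LpM, 0 of 14 genes were 2-fold different in either direction, against 6.58% of all genes higher and 4.45% lower in fertile anthers. TPP7 was picked for a difference at YM only, so its LpM value was among those that chose the family. Without it the count is 0 of 13. The family's median, with TPP7 in it, was -0.05, and that of all genes -0.01. The value furthest from 0 at this stage was that of TPP4.

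None of the 7 synthases was 2-fold different between the genotypes, with log2 fold changes between -0.53 and 0.91 at YM and between -0.25 and 0.35 at LpM. At YM the interval lay above 0 for 2 of them, TPS4 and TPS6_1, and below 0 for 3. Over all expressed genes the shares were 24.1% above and 17.5% below. The sign of TPS6_1 turned under other scalings, as given below. The widest difference was that of TPS4, a class II gene, and it had the opposite sign to TPP1, TPP4 and TPP7. TPS4 had 1652, 1718, 1102 and 1658 counts, or 170.2, 152.3, 90.3 and 147.8 CPM. The sterile YM library was the lowest and fertile YM the highest, with the LpM libraries between them. At YM it was 1.88-fold higher in fertile anthers, 0.91 [0.80, 1.02], and at LpM 0.04 [-0.06, 0.14]. In sterile anthers it was 1.63-fold higher at LpM than at YM, 0.71 [0.60, 0.82].

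TPS1, the class I synthase, was at 83.7, 117.6, 89.6 and 139.5 CPM, and both LpM libraries were above both YM libraries. Its log2 fold change between genotypes was -0.10 [-0.23, 0.04] at YM and -0.25 [-0.35, -0.14] at LpM. Per length it was no more than the third most abundant synthase in any library, with 11.8% of the summed synthase RPKM in fertile YM, 16.2% in fertile LpM, 13.1% in sterile YM and 19.0% in sterile LpM. The first place was taken by TPS4 in 3 libraries and by TPS5 in sterile YM.

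TPS8 was the synthase with the clearest stage difference. Its counts were 621 in fertile YM, 321 in fertile LpM, 1126 in sterile YM and 324 in sterile LpM, or 64.0, 28.4, 92.3 and 28.9 CPM. Both YM libraries were above both LpM libraries. It was 2.25-fold lower at LpM in fertile anthers, -1.17 [-1.37, -0.97], and 3.19-fold lower in sterile anthers, -1.67 [-1.86, -1.497]. Between the genotypes it differed by -0.53 [-0.67, -0.39] at YM and by -0.02 [-0.25, 0.21] at LpM.

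The remaining 4 synthases, all of class II, spanned less than 2-fold over the libraries. TPS2 was at 118.2, 128.7, 131.2 and 135.2 CPM, the flattest profile of the family. TPS3 was at 88.1, 79.5, 84.4 and 65.5 CPM and was lowest in sterile LpM. TPS5 was at 97.2, 128.9, 129.7 and 150.0 CPM and was lowest in fertile YM, with a difference between genotypes of -0.41 [-0.53, -0.30] at YM. TPS6_1 was at 141.7, 145.6, 128.8 and 114.1 CPM, with 0.35 [0.25, 0.46] between genotypes at LpM. Its YM value, 0.14 [0.03, 0.24], turned to between -0.04 and -0.005 with total counts, quantile normalization or RPKM, so no direction is drawn for it.

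Summed over the named genes of each class, the synthases differed less between the libraries than the phosphatases. The synthases together made 764.0 CPM in fertile YM, 781.3 in fertile LpM, 746.6 in sterile YM and 781.2 in sterile LpM, with a log2 fold change between genotypes of 0.03 [-0.01, 0.08] at YM. The phosphatases together made 115.2, 176.7, 262.0 and 206.1 CPM, and were 2.28-fold lower in fertile anthers at YM, -1.19 [-1.29, -1.09], and closer at LpM, -0.22 [-0.31, -0.14]. This sum holds TPP7, the gene that chose the family. Without it the YM value was -0.98 [-1.08, -0.88], and without both TPP7 and TPP1 it was -0.39 [-0.53, -0.25]. The stage change of the sum in sterile anthers was -0.35 [-0.42, -0.27], and without both genes it turned to 0.39 [0.27, 0.51].

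Within a library, the ratio of summed synthase to summed phosphatase RPKM does not depend on the scaling between libraries. It was 3.80 in fertile YM, 2.51 in fertile LpM, 1.57 in sterile YM and 2.15 in sterile LpM. The YM libraries were at both ends of this range. Without TPP7, the gene that chose the family, the ratio was 3.86, 2.68, 1.86 and 2.26, and the ends were the same. Without both TPP1 and TPP7 it was 6.52, 5.02, 4.56 and 3.80, and the lowest library was then sterile LpM. TPP1 stood at 20.2, 33.2, 66.4 and 40.5 RPKM, and TPP7 held 1.49%, 6.02%, 15.5% and 4.94% of the phosphatase RPKM. In sterile YM, TPP7 was second among the 9 phosphatases, and in the other libraries it was sixth or seventh.

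**Figure D3:**
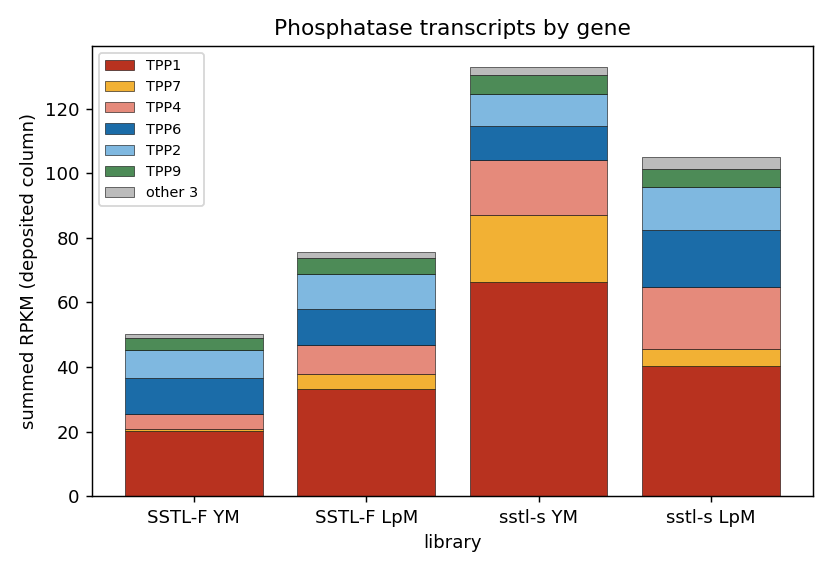
Summed RPKM of the phosphatases in each library, stacked by gene from 0, with TPP3, TPP5 and TPP8 together as the other 3. The sum is 50.3 in fertile YM and 132.8 in sterile YM, where TPP1 and TPP7 are the lowest parts of the bar.

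Between the stages in fertile anthers, 2 of 14 genes, TPP3 and TPP7, were at least 2-fold higher at LpM and 1, TPS8, was at least 2-fold lower, against 12.0% and 4.95% of all genes. The interval lay past 2-fold for TPP7 alone. TPP3 rests on 18 counts at YM and 46 at LpM, a change of 1.10 [0.32, 2.01]. All 7 phosphatases that passed were higher at LpM in fertile anthers, with a median of 0.76, and the interval was above 0 for 5 of them. Of all expressed genes 48.2% were above 0 in this comparison, and 23.2% had the whole interval above 0. The 7 include TPP7, whose fertile YM level was among the values that chose the family. Without TPP7, 1 of 13 genes was at least 2-fold higher at LpM and 1 at least 2-fold lower. The synthases had a median of 0.04 and all expressed genes one of -0.02.

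In sterile anthers, 0 of 14 genes were 2-fold higher at LpM and 2, TPP7 and TPS8, were 2-fold lower, both with the whole interval past the line. The shares over all genes were 7.39% higher and 4.51% lower. The levels of TPP7 were among the values that chose the family, and without it 1 of 13 genes was lower. TPP6 and TPP3 were higher at LpM in sterile anthers, by 0.77 [0.54, 0.998] and 0.86 [0.29, 1.49], so the phosphatases had no common direction there. The stage changes of the genotypes are each a difference from that genotype's own YM library, and the difference between them has no test.

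**Figure D4:**
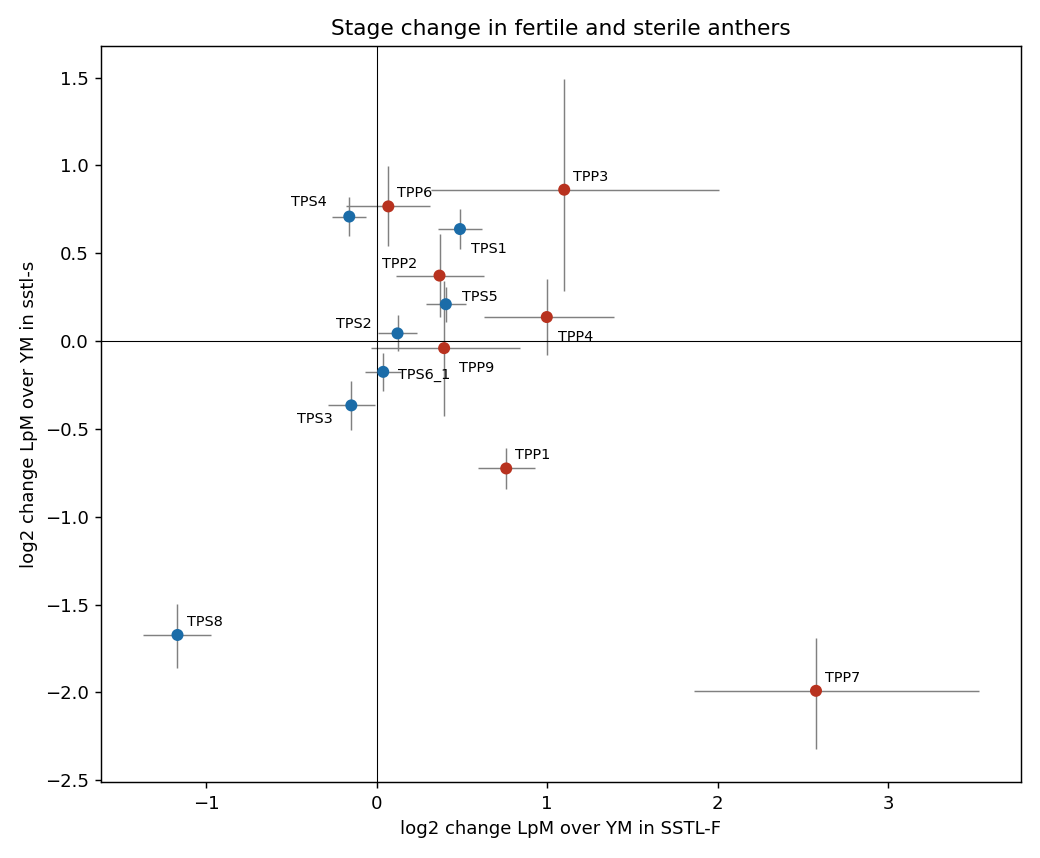
Log2 change from YM to LpM in fertile anthers (horizontal) and in sterile anthers (vertical) for the 14 genes, with 95% counting intervals, phosphatases in red and synthases in blue. TPP7 at 2.58 and -1.99 and TPP1 at 0.76 and -0.72 lie in the lower right, and TPS8 at -1.17 and -1.67 in the lower left.

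Over the 4 libraries, 7 of the 14 genes had their highest CPM in sterile LpM, 3 in sterile YM (TPP1, TPP7 and TPS8), 2 in fertile YM (TPS3 and TPS4) and 2 in fertile LpM (TPP9 and TPS6_1). Of all 24543 expressed genes, 18.1% were highest in sterile LpM, 24.5% in sterile YM, 27.7% in fertile YM and 29.7% in fertile LpM. The highest library was not always apart from the next by counting error. For TPS2, sterile LpM over sterile YM was 0.04 [-0.06, 0.15], and for TPP4 it was 0.14 [-0.08, 0.35]. Nothing particular to the family is read from these places. By their place in the order of the tables the genes are spread over chromosomes 1 to 10, and TPS6_1 (between Os05g0516900 and Os05g0517400) and TPS1 (between Os05g0518200 and Os05g0518800) stand near each other. In the same order TPP7 stands between Os09g0369050 and Os09g0369750 on chromosome 9, TPP1 between Os02g0661050 and Os02g0661200 and TPP4 between Os02g0752701 and Os02g0753200, both on chromosome 2. Of the 17 names, 8 phosphatases were matched to a RefSeq gene of the same name, each on the same chromosome. TPS and TPP genes resemble each other within their classes, and how the counting treated reads that match several of them is not given in the sources used here.

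The genes around trehalose-6-phosphate, taken by words in their names, numbered 22, and all passed 10 counts. At YM 1 was 2-fold higher and 1 lower in fertile anthers, where all genes had 4.24% and 8.21%. At LpM 1 was higher and 1 lower, against 6.58% and 4.45%. From YM to LpM 4 were higher and 1 lower in fertile anthers, against 12.0% and 4.95%, and 4 were higher and 2 lower in sterile anthers, against 7.39% and 4.51%. These are counts of few genes, and nothing particular to the list is read from them. The list comprised 1 trehalase, 3 SnRK1-related genes, 2 UDP-glucose pyrophosphorylases, 10 hexokinases and 6 sucrose phosphate synthases. The SnRK1-related genes, a beta subunit and both SnRK1A-interacting negative regulators, were within 2-fold in all 4 comparisons. No catalytic subunit of the kinase was matched by the words used.

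TREHALASE 1, which splits the product of the phosphatases, differed more between stages than between genotypes. It had 81 counts in fertile YM, 262 in fertile LpM, 85 in sterile YM and 199 in sterile LpM, or 8.34, 23.2, 6.97 and 17.7 CPM. Both LpM libraries were above both YM libraries. At LpM it was higher by 1.47 [1.11, 1.85] in fertile anthers and by 1.34 [0.97, 1.73] in sterile anthers. Between the genotypes it was 0.26 [-0.20, 0.72] at YM and 0.39 [0.12, 0.66] at LpM.

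Hexokinases phosphorylate glucose to glucose-6-phosphate, a substrate of TPS. HEXOKINASE-7 had 88.8, 784.1, 192.4 and 582.8 CPM in the library order used above. It was higher in sterile anthers at YM, -1.11 [-1.23, -1.002], higher in fertile anthers at LpM, 0.43 [0.38, 0.47], and higher at LpM in both genotypes. HEXOKINASE-1 had 119, 80, 29 and 93 counts, and was higher in fertile anthers at YM, 2.32 [1.77, 3.005], and at LpM than at YM in sterile anthers, 1.76 [1.19, 2.46]. Its lowest library was thus sterile YM, where HEXOKINASE-7 was above its fertile value. SUCROSE PHOSPHATE SYNTHASE, which makes the precursor of sucrose, had 45.3, 110.5, 57.9 and 105.6 CPM and was higher at LpM by 1.28 [1.13, 1.45] in fertile anthers and by 0.87 in sterile anthers. The other differences past 2-fold were in SUCROSE PHOSPHATE SYNTHASE 11, HEXOKINASE-10 and UDP-GLUCOSE PYROPHOSPHORYLASE 2, which had at most 41 counts in any library.

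The genes whose profile was nearest to that of TPP7 were found by the distance between log2 CPM over the 4 libraries. Each gene was centred on its own mean. The search covered 15736 genes with at least 100 counts in their highest library and left out the other family members. The nearest 5 were Os01g0760000 at 1.28, Os08g0188151 at 1.28, Os06g0255400 at 1.30, Os07g0569166 at 1.54 and Os12g0624050 at 1.55, and 0 genes were within a distance of 1. The tables do not pair these IDs with names. Os06g0255400, the gene with the most reads of these, had 74, 425, 689 and 234 counts and a log2 fold change of -2.88 at YM. All 5 were highest in sterile YM and lowest in fertile YM, and the value of each at YM, from -2.97 to -2.35, was smaller than that of TPP7. They were selected for this likeness over 4 points.

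**Figure D5:**
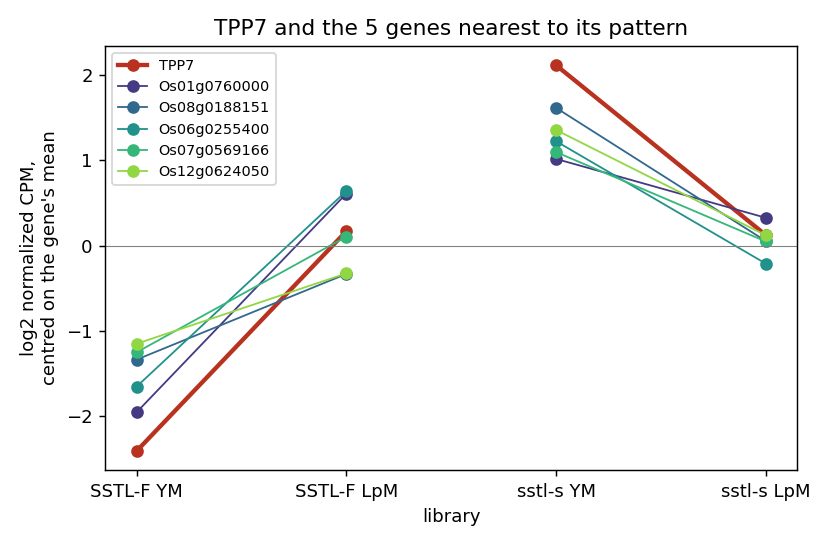
Log2 normalized CPM of TPP7 (thick red line) and its 5 nearest genes outside the family in the 4 libraries, centred on each gene's mean. Lines join the stages of a genotype. TPP7 runs from -2.41 in fertile YM to 2.11 in sterile YM, further than the other 5.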

How the data were processed

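RNA of anthers was extracted with TRIzol and sequenced as 90-bp single-end reads on an Illumina HiSeq instrument. Per the study's methods the authors used CLC Genomics Workbench 11, with RAP-DB as the annotation. Mapping and counting settings are not given in the sources used here. For every library the authors deposited total read counts per gene, whole numbers that are the basis of the results. The deposited RPKM column, made by the authors from counts and gene length, served to compare genes within a library and as an alternative. The deposited TPM column was inspected only. The deposited CPM column was treated as a score, since its sums differ between libraries, and was not used for results.

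The members and lists were chosen with earlier results of these data known. Counts of the 4 libraries were normalized by TMM (edgeR 4.0.16, R 4.3.3), with factors of 0.955 to 1.055. Log2 fold changes used a prior count of 1. Intervals are 95% exact Clopper-Pearson intervals and cover counting error only. With 1 library per group no model was fitted. A gene was called expressed at 10 or more counts in 1 library, and a difference was counted from 2-fold on. Named genes are all rows containing trehalose, list genes past 2-fold that reached 100 counts in either library compared, and the 5 genes outside the family nearest to TPP7. A few low-count list genes were named after their values were seen, to complete the counts. Alternatives were total counts, DESeq2 1.42.0 size factors, TMM on the compared pair, quantile normalization (limma 3.58.1), prior counts of 0.25 and 5, log2(RPKM + 1), no count filter and at least 50 counts. The calculations were tested on simulated counts that held counting error alone. That test does not cover variation between plants or libraries. Further software was Python 3.11.15, matplotlib 3.10.9, scipy 1.17.1, pandas 2.3.3 and numpy 2.4.6. RefSeq names came from assembly ASM3414082v1, and no sequence or coordinate was used here.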

Additional observations from a re-analysis of the deposited data

Results flagged for a closer look

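In 4 genes the libraries moved in opposite directions under the same comparison, with both counting intervals clear of 0. With 1 library per group the difference was not tested. The share of all expressed genes that do the same was not computed, so nothing particular to the family is read from the count. From YM to LpM, TPP7 had a log2 change of 2.58 in fertile anthers and of -1.99 in sterile anthers. Its levels at both stages were among the values that chose the family. TPP1 had 0.76 in fertile and -0.725 in sterile anthers. TPS4 had the reverse order, -0.16 in fertile and 0.71 in sterile anthers. TPP6 was higher in *SSTL-F* at YM, 0.26 [0.002, 0.51], and lower at LpM, -0.44 [-0.66, -0.23]. The YM interval came close to 0, and the value was 0.11 with total counts and 0.07 with RPKM.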

How the results depend on the processing

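With 1 library per group, no comparison can be repeated without one of its libraries. No paired analysis was possible because each group has 1 library, so the groups compared share fewer than 2 replicate numbers. Over the single genes, 364 values stayed within their counting interval under the alternatives, 25 moved outside it with the same sign or an interval holding 0, and 3 turned from an interval clear of 0. TPP7 at YM stayed between -4.66 and -3.62, TPP1 between -1.68 and -1.53, and TPP4 between -1.86 and -1.68. Where the interval was clear of 0, 256 values kept their sign and 3 turned, and where it held 0, 123 kept it and 10 did not. The 3 were TPS6_1 at YM, 0.14, which became -0.005 with total counts, -0.012 with quantile normalization and -0.036 with RPKM. The median of all expressed genes at YM was 0.03 by TMM, -0.11 by total counts and -0.11 by RPKM, and at LpM -0.01 by TMM and -0.19 by RPKM.

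Genes of the family past 2-fold numbered 3 at YM, and 5 without the count filter. At LpM there were 0, and 1 with RPKM (TPP4) or 1 without the filter. Between stages there were 3 in *SSTL-F*, and 5 without the filter. The *SSTL-F* count was 4 with total counts, DESeq2, pairwise TMM or a prior count of 0.25, where TPP4 passed the line, and 2 with quantile normalization, a prior count of 5 or RPKM, where TPP3 did not, and 2 without TPP7. There were 2 in *sstl-s*, and 1 without TPP7. List genes past 2-fold at LpM went from 2 to 0 with a prior count of 5, with RPKM or with at least 50 counts. Between stages, RPKM and at least 50 counts took them from 5 to 3 in *SSTL-F* and from 6 to 3 in *sstl-s*. All expressed genes past 2-fold numbered 3054 at YM, and 1159 with RPKM, 5306 without the filter and 1395 with at least 50 counts. In the same order they were 2707, 900, 4445 and 1280 at LpM, 4151, 1971, 6668 and 2299 between stages in *SSTL-F*, and 2921, 1122, 4583 and 1418 in *sstl-s*. At LpM the main count was 1615 higher and 1092 lower in *SSTL-F*, and with RPKM 435 higher and 465 lower.

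The alternatives for the summed phosphatases and the counts without TPP7 were chosen after the data were seen. The sum gave -1.19 at YM, -1.33 with total counts, -1.40 with RPKM, -0.98 without TPP7 and -0.39 without TPP1 and TPP7. At LpM the sum gave -0.22, -0.47 with RPKM and -0.39 without both genes. Its stage change was 0.62 in *SSTL-F* and 0.39 without both, and -0.35 in *sstl-s*, -0.19 without TPP7 and 0.39 without both, which turned its sign. The cause of the moves with scaling was not tested. Depth limits TPP3, TPP5, TPP8 and TPS6_2, and the 15 counts of TPP7 in *SSTL-F* YM set the width of its interval.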
